A study of Saccharomyces cerevisiae BY4741 with 40 samples.

Results

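Loss of Rrp6 was examined in budding yeast cells that also lacked Upf1. 3 TSS sequencing libraries of *upf1∆rrp6∆* cells were set against 3 of *upf1∆* cells, which are 6 of the 40 libraries of the series. TSS sequencing ligates an oligonucleotide to decapped poly(A)+ RNA, so that reads mark the 5′-ends of capped transcripts. Neighboring start sites were grouped by the authors into transcription start site clusters (TSSCs), and all 17812 TSSCs of the table were compared. All strains were BY4741 with *can1∆*. By the labels, the double mutant carried *upf1∆* with KANMX6 and *rrp6∆* with HPHMX6, and *upf1∆* cells carried *upf1∆* with KANMX6. The strain list of the study gives HIS3MX6 at *upf1∆* for the *upf1∆* strain and for the strain of 2 of the double mutant libraries, and this was not resolved. The double mutant libraries came from 2 strains and the *upf1∆* libraries from 1 strain. Libraries of *rrp6∆* (BY4741 *can1∆ rrp6∆*) and wild-type (BY4741 *can1∆*) cells, 3 each, gave the same loss of Rrp6 with Upf1 present.

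Rrp6 is a 3′-5′ exonuclease of the nuclear exosome. It trims precursors of small nuclear and nucleolar RNAs and degrades cryptic unstable transcripts (CUTs). Most CUTs are ended early by the Nrd1-Nab3-Sen1 (NNS) complex, in which Nrd1 and Nab3 bind short words in the nascent RNA, and are given a poly(A) tail by the TRAMP complex. Upf1 is the central helicase of nonsense-mediated decay (NMD), which removes RNAs with early stop codons in the cytoplasm. Xrn1-sensitive unstable transcripts (XUTs) are degraded mainly in the cytoplasm, whereas stable unannotated transcripts (SUTs) are seen in wild-type cells.

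The words read by Nrd1 (GTAA and GTAG in DNA letters) and Nab3 (TCTT and CTTG) were searched in the 200 nt that follow each TSSC, since the number of words is set against the measured ratios further on. The sequences shown are the 30 nt with the most words in that window, for the 3 CUT-TSSCs with the largest ratio of double mutant over *upf1∆* values, the 3 with the smallest, and the 2 mRNA-TSSCs with the largest, among TSSCs with a mean of at least 20. They are from the RefSeq R64 genome, in its coordinates, on the strand of the TSSC, 5′ to 3′, with the words in capitals.
CUT_GIM_1294 (chrVIII:441880-441909, minus strand): agcacacttaaacaTCTTttTCTTtaacac
CUT_GIM_0113 (chrII:381436-381465, plus strand): acaGTAAgccacaattcTCTTacctTCTTG
CUT_GIM_1056 (chrX:450538-450567, minus strand): tgtTCTTaccacctatttccactacTCTTG
CUT_GIM_0105 (chrII:351338-351367, plus strand): accaagaaatgattgttgttgttgttGTAA
CUT_GIM_0213 (chrXIV:416832-416861, plus strand): GTAAgacattaatttggcCTTGattgCTTG
CUT_GIM_0482 (chrVII:622190-622219, plus strand): ttactgagcaccTCTTacatGTAGTAGTAA
*YGR121W-A* (chrVII:733681-733710, plus strand): gggctgtgGTAAcaCTTGagaTCTTGTCTT
*IMD3* (chrXII:1002371-1002400, plus strand): TCTTttttactctattTCTTtTCTTTCTTG
The whole windows of the first 3 CUTs held 6, 9 and 7 words, with 5, 6 and 4 of them Nab3 words. Those of CUT_GIM_0105, CUT_GIM_0213 and CUT_GIM_0482 held 2, 5 and 7 words, with 0, 2 and 2 Nab3 words. The windows of *YGR121W-A* and *IMD3* held 9 and 8 words. That of *URA2*, the mRNA-TSSC with the next largest ratio, is not shown and held only 2 words. Its opposite strand held 5. The largest mRNA ratios were thus not all followed by many words.

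The table gives 1 value per genotype and TSSC, a whole number of reads normalized to mRNA 5′-ends and pooled by the authors over the 3 libraries. No spread between libraries can be had from it, so no ratio below has an error or a test. The values summed to 4842344 in the double mutant and 4985459 in *upf1∆* cells. Ratios are log2((double mutant + 1)/(*upf1∆* + 1)), and a TSSC was called higher or lower past 2-fold. TSSCs had been kept by the authors on their TAP signal in *upf1∆rrp6∆* libraries, so a transcript with little signal in the double mutant could be lost from the table. A second pooled *upf1∆* value, from 3 libraries of the same strain in the *SET2* experiment and scaled to equal mRNA medians, was the measure of error. Over the 12852 TSSCs of both tables, 6.06% had a *upf1∆* value more than 2-fold above the second value and 4.68% more than 2-fold below it. The SD of this log2 difference ran from 0.58 for mRNA- to 0.94 for internal sense TSSCs. The mRNA-TSSC of *RRP6*, which spans the start codon, had a value of 7 in *upf1∆rrp6∆* and 88 in *upf1∆* cells, with 78.5 in the second set. The TSSC of *NAM7*, the gene of Upf1, had 349 and 176, with 220 in the second *upf1∆* set, and that of *CAN1* had 1539 and 1303, with 1570. The TSSCs of *NAM7* and *CAN1* lie upstream of the deleted ORF and do not check the deletion. *ACT1*, the actin gene, had 23420 in the double mutant and 24253 in *upf1∆* cells, with 23551 in the second set.

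Over all classes, 5086 TSSCs (28.6%) were higher and 706 (3.96%) were lower in *upf1∆rrp6∆* than in *upf1∆* cells, with a median log2 ratio of 0.39. CUT-TSSCs stood at one end, with 1317 of 1598 higher, 6 lower and a median of 2.87. At the other end, 314 of 5927 mRNA-TSSCs (5.30%) were higher and 169 (2.85%) lower, with a median of 0.15. Antisense (A) TSSCs had a median of 1.52, intergenic TSSCs 0.70, XUTs 0.58, stable ncRNAs and repeats (F) 0.44 and SUTs 0.41. TSSCs inside genes in the sense direction (B) had a median of 0.00, with 411 of 2978 higher and 307 lower. CUT values summed to 202257 in the double mutant, against 43016 in *upf1∆* cells, a share of 4.18% of all values against 0.863%. mRNA values summed to 4071030 and 4591629. A value of at least 10 in the double mutant with 0 listed in *upf1∆* was found for 361 of the 17812 TSSCs. Among them were 151 of the 1598 CUT- and 115 of the 1750 antisense TSSCs. TSSCs were kept on their signal in the double mutant, which favors this count and makes the reverse count not informative.

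**Figure D1:**
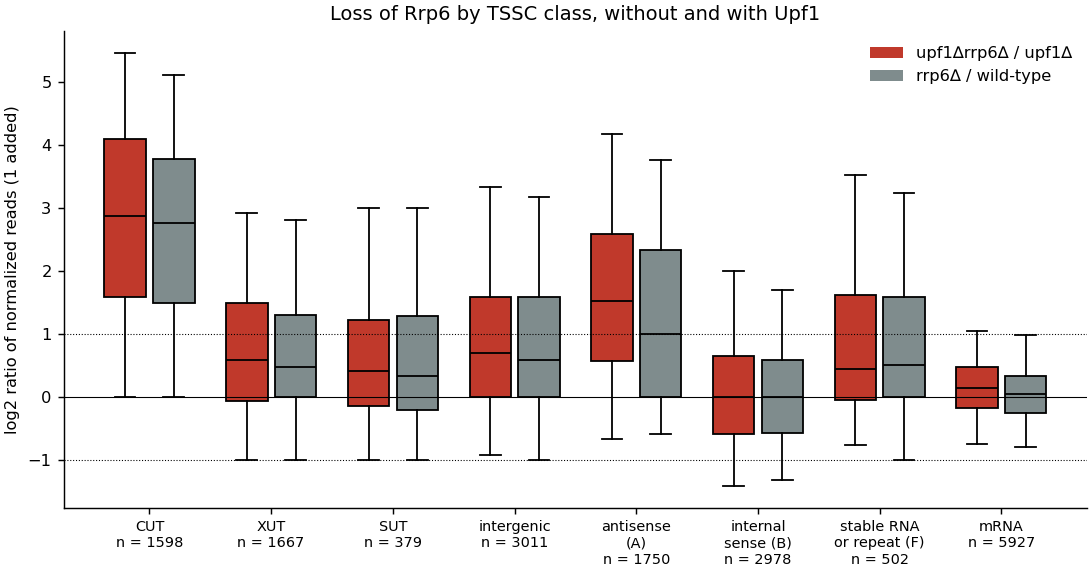
Log2 ratios of normalized reads by class, for *upf1∆rrp6∆* over *upf1∆* (red, left of each pair) and *rrp6∆* over wild-type (grey). Boxes span the quartiles with the median as a line, whiskers run from the 5th to the 95th percentile, and dotted lines mark 2-fold. The CUT boxes (medians 2.87 and 2.75) lie above 2-fold and the mRNA boxes (0.15 and 0.04) lie within it.

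With the second *upf1∆* value as the reference, over the TSSCs of both tables, the CUT share was nearly equal and the mRNA share was not. CUT-TSSCs were higher in 73.6%, against 73.5% of the same TSSCs with the first value, and antisense TSSCs in 44.9% against 42.3%. Only 731 of 1598 CUT- and 810 of 1750 antisense TSSCs had a second value, so most of both classes were not checked by it. Of all CUT-TSSCs 82.4% were higher with the first value. mRNA-TSSCs were higher in 14.8% against 4.45% and lower in 7.01% against 2.79%. Internal sense TSSCs were lower in 27.2% against 12.1%. Over all matched TSSCs the shares with the second value were 24.7% higher and 11.6% lower. For single mRNA- and B-TSSCs the second *upf1∆* value follows in brackets below, and those without brackets had no match.

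CUTs were the class with the largest median. CUT_GIM_1294, which starts at chrVIII:441910-441968, had a value of 1055 in *upf1∆rrp6∆* and 7 in *upf1∆* cells, a log2 ratio of 7.04, and 5.32 in the second *upf1∆* set. CUT_GIM_0113, at chrII:381274-381376, had 110 and was listed at 0 in *upf1∆*. It lies upstream of *HSP26*, a small heat shock protein gene, in the same direction, and the *HSP26* TSSC had 29 in the double mutant and 87 in *upf1∆* cells (99.8). CUT_GIM_1056, at chrX:450640-450702, had 549 and 4. These 3 TSSCs were at 7 or less in *upf1∆* cells, and 2 of them passed the median mRNA-TSSC of the double mutant, which was at 182. By level, the 3 highest CUT-TSSCs of the double mutant were CUT_GIM_0774 with 3059, against 200 in *upf1∆* cells, the TSSC shared by CUT_GIM_1003 and CUT_GIM_1010 with 2938 and 781, and CUT_GIM_0238 with 2878 and 320. Among CUT-TSSCs with a mean of at least 20, the smallest ratios were those of CUT_GIM_0105 with 228 and 412, CUT_GIM_0213 with 547 and 950, and CUT_GIM_0482 with 357 and 534. Each was lower in the double mutant by less than 2-fold, and all 3 had *upf1∆* values far above the CUT median of 3. Against the second *upf1∆* set CUT_GIM_0105, with 672 there, was lower by more than 2-fold, and CUT_GIM_0213 and CUT_GIM_0482 were within it.

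**Figure D2:**
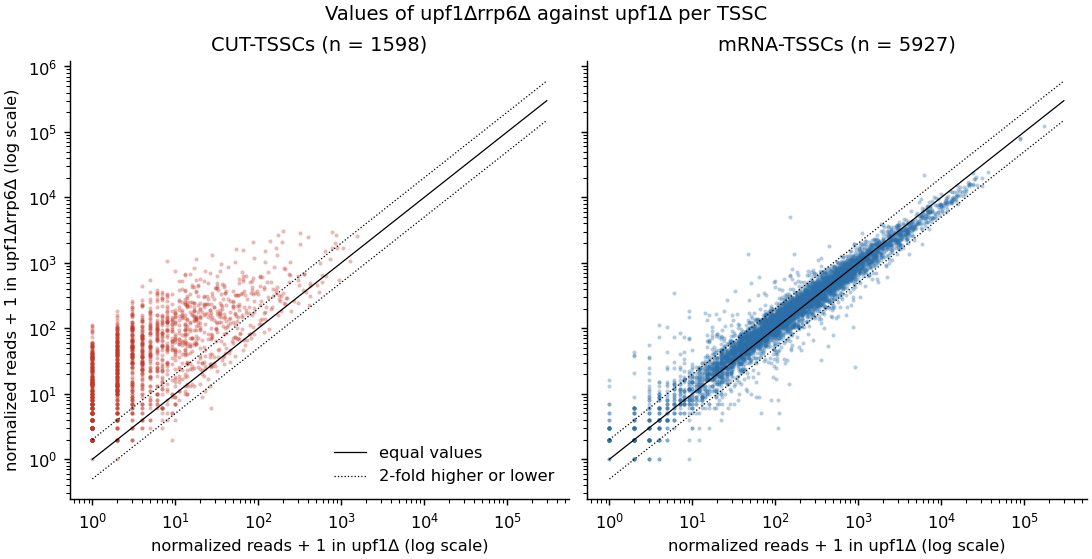
Values of the 1598 CUT-TSSCs (left) and 5927 mRNA-TSSCs (right), 1 point each, with normalized reads plus 1 in *upf1∆* on the x axis and in *upf1∆rrp6∆* on the y axis, both on a log scale. The solid line marks equal values and the dotted lines 2-fold. 82.4% of the CUT points lie above the upper dotted line, and 5.30% of the mRNA points do.

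Grouped by their value in wild-type cells, which enters neither side of the ratio, CUT-TSSCs with the lowest levels had the largest ratios. The median was 3.17 for the 875 TSSCs below 3, 3.00 at 3 to 10, 2.44 at 10 to 30 and 1.31 at 30 to 100. At 100 to 300 it was 1.45 over 24 TSSCs. TSSCs were kept on reads in any sample and on signal in the double mutant. Those low in wild-type cells were thus favored if high elsewhere. The part of this selection in the trend was not tested. By configuration, of CUT-TSSCs that run antisense to the flanking gene in tandem, 636 of 736 were higher, with a median of 3.00. Divergent ones were higher in 472 of 590 (median 2.91), convergent ones in 95 of 113 (2.81) and tandem sense ones in 114 of 159 (2.06).

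Ratios were larger where more Nrd1 and Nab3 words followed the TSSC, in CUTs and in the other classes. In CUTs the median was 1.74 with at most 3 words, 2.58 with 4 to 5, 3.17 with 6 to 7, 3.48 with 8 to 9 and 3.96 with 10 or more. Of the 138 CUT-TSSCs with 10 or more words, 137 were higher, against 205 of 332 with at most 3. Intergenic medians over the same bins were 0.37, 0.74, 1.32, 1.81 and 2.00, and antisense medians were 0.77, 1.32, 1.81, 2.32 and 2.32. For mRNA-TSSCs the share that was higher was 3.33% with at most 3 words and 33.9% of the 56 with 8 to 9. Words on the opposite strand ran the other way in CUTs. Their median was 3.00 with at most 3 such words and 2.25 with 6 to 7. Taken apart, Nab3 words spread the CUT ratios more than Nrd1 words. The median was 1.78 with no Nab3 word and 3.84 with 7 or more, while it was 2.53 with no Nrd1 word and 2.88 with 5 to 6.

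**Figure D3:**
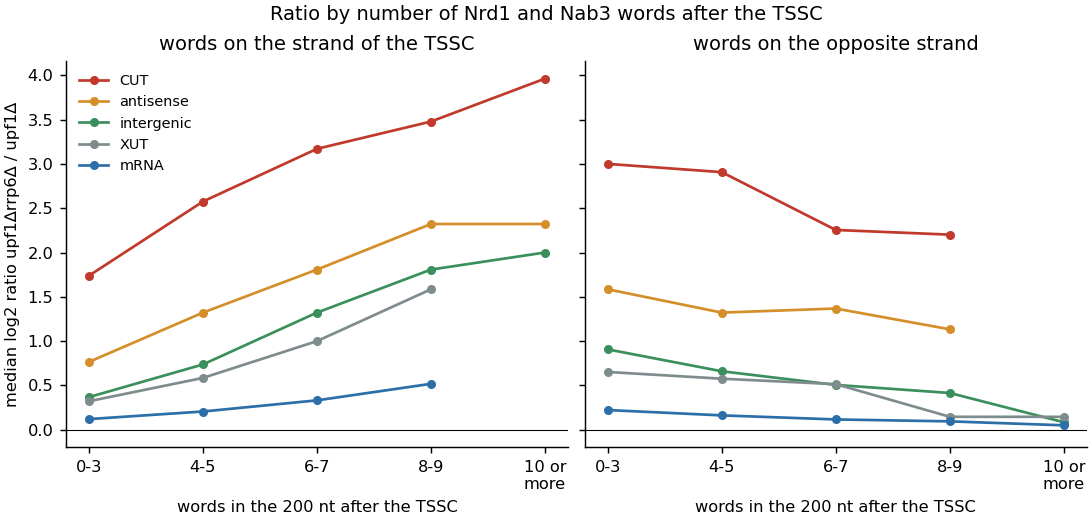
Median log2 ratio of *upf1∆rrp6∆* over *upf1∆* (y axis) by the number of Nrd1 and Nab3 words in the 200 nt after the TSSC (x axis), on its own strand (left) and on the opposite strand (right), with 1 line per class. Bins with fewer than 20 TSSCs are not drawn. On the own strand the CUT line runs from 1.74 to 3.96, and on the opposite strand the CUT line is at 3.00 with at most 3 words and 2.25 with 6 to 7.

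These are counts of letters and not of bound sites, and neighboring TSSCs share part of their windows. The 4 words were counted with overlaps, and TCTTG counts as both Nab3 words. Of all 17804 windows on nuclear chromosomes, 56.8% held GTAA, 40.8% GTAG, 68.3% TCTT and 52.6% CTTG. On the opposite strand GTAG was in 42.7%, TCTT in 79.0% and CTTG in 61.9%, and GTAA was within 2 percentage points of its own-strand share. In CUT windows they were 67.5%, 55.3%, 85.9% and 77.2%. A CUT window held 5.81 words on average, and 3.31 on the opposite strand, while an mRNA window held 2.69 and 5.22. GC content moved little over the CUT bins, between 37.6% and 39.7%. The median *upf1∆* value moved with the words, at 9 reads with at most 3 words and 1 read with 10 or more, and its part in the ratio was not tested.

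Among XUT-TSSCs, 575 of 1667 (34.5%) were higher and 68 lower in the double mutant. XUT_9R-56, at chrIX:135939-136188, had 488 in *upf1∆rrp6∆* and 11 in *upf1∆* cells. XUT_15F-10 had 149 and 1, and XUT_16F-332 had 40 and was listed at 0 in *upf1∆*. In the other direction, XUT_13F-80 had 12 and 116 (145 in the second set), XUT_4R-372 had 32 and 281 (354), and XUT_1F-12 had 29 and 140 (77.2). SUT-TSSCs were higher in 109 of 379 and lower in 16. SUT427 had 132 in the double mutant and 3 in *upf1∆* cells, SUT661 had 90 and 2, and SUT257 had 51 and 1. SUT208 had 4 and 39, SUT446 had 18 and 112, and SUT674 had 75 and 294. SUT446 starts at chrII:431156-431312, upstream of the acid phosphatase gene *PHO5* and on its strand, and *PHO5* itself is described with the mRNAs.

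Intergenic TSSCs were higher in 1168 of 3011 (38.8%) and lower in 101. The one between *YLR347C* and *YLR350W* had 300 in the double mutant and 2 in *upf1∆* cells. The one beside *YOR071C* and a proline tRNA gene had 64, and the one beside *YGL096W* had 51, both listed at 0 in *upf1∆*. The lowest ratio, -4.77, was that of the TSSC between *YGL263W* and *YGL262W*, near the end of chromosome VII. It had 4 in *upf1∆rrp6∆* and 135 in *upf1∆* cells, with 138 in the second set, and 1 in *rrp6∆* and 3 in wild-type cells. Next came the TSSC between *YAR042W* and *YAR050W* with 34 and 128, and the one between *YGR054W* and *YGR055W* with 25 and 88.

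Antisense TSSCs start within or beside a gene on its opposite strand. 1014 of 1750 (57.9%) were higher and 31 lower. The share differed with the place in the gene. With the ORF cut into 3 equal parts, it was 35.1% in the first, 46.4% in the middle one, 66.3% in the last and 73.1% past the stop codon, with medians of 0.58, 1.00, 1.64 and 2.01. With Upf1 present the medians over the same places were 0.49, 0.74, 1.32 and 1.75. *UME6*, a repressor of meiotic genes, had an antisense TSSC with 113 in the double mutant and 1 in *upf1∆* cells. The antisense TSSC of *GIM5*, a prefoldin subunit, had 63 and that of *YPT35* had 47, both listed at 0 in *upf1∆*. The lowest were the antisense TSSC of *YMR321C*, with 8 and 67, and those at chrXIV:117052-117078, with 12 and 33, and chrV:546565-546573, with 15 and 40.

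Each antisense TSSC was set against the mRNA-TSSC of its gene with the highest *upf1∆* value. The mRNA was lower in 20 of 736 pairs (2.72%) where the antisense was higher, and higher in 20 of them. The share lower was near the 2.85% of all mRNA-TSSCs, which were not chosen by their *upf1∆* value. The mRNA was lower in 6 of 565 pairs (1.06%) where the antisense was not higher, and higher in 34. The median mRNA ratio was 0.03 in the first group and 0.15 in the second. Where the antisense was higher and reached 50 reads in the double mutant, the mRNA was lower in 6 of 108 pairs (5.56%) and higher in 4. The 6 lower ones were chosen after their values were seen. *LIN1* had an antisense TSSC with 1143 and 79, and its mRNA had 33 in the double mutant and 127 in *upf1∆* cells, but 59.9 in the second set. *DGR2* had antisense values of 692 and 35 and mRNA values of 33 and 73 (82.5 in the second set). The other 4 of the 6 lower ones were *GGC1*, *XKS1*, *PHM6* and *MOG1*. For *GGC1* and *MOG1* the second *upf1∆* mRNA value, 165 and 182, was below the double mutant values of 211 and 193.

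Internal sense TSSCs were the only class with nearly as many lower as higher calls, 307 and 411. By position, in the first of 3 equal parts of the ORF 49 of 940 were higher and 103 lower, in the middle one 62 of 770 and 100, in the last 138 of 780 and 85, and past the stop codon 71 of 220 and 11. With the second *upf1∆* value the last part had more lower than higher TSSCs, 35.9% against 14.1%, where the first value gave 13.3% and 15.5% of the same TSSCs. Past the stop codon 28.6% were higher and 9.02% lower with it. The internal TSSC of *MDR1*, a GTPase-activating protein gene, had 506 in the double mutant and 15 in *upf1∆* cells (16.0 in the second set), with 36 in *rrp6∆* and 10 in wild-type cells. 2 TSSCs without a host name, at chrVI:14026-14219 and chrIV:17286-17492, had 185 and 4 (1.33), and 93 and 3 (0). The lowest was in *SPO1*, a meiotic phospholipase homolog gene, with 7 in *upf1∆rrp6∆* and 160 in *upf1∆* cells (185 in the second set). *FLO9*, a flocculin gene, had 13 and 199 (263), and *SRS2*, a DNA helicase gene, had 4 and 54 (62.5). XUT_1F-12, at chrI:24831-25066, lies beside the *FLO9* TSSC at chrI:24713-24755 on the other strand. SUT208, at chrX:261339-261409, follows the *SRS2* TSSC at chrX:260968-261057 on the same strand.

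snoRNA genes had larger ratios than CUTs. snoRNAs guide rRNA modification and cleavage, and snRNAs form the spliceosome. The libraries were made from poly(A)+ RNA, so the values count polyadenylated RNA of snoRNA and snRNA genes and not their total RNA. Of 28 snoRNA TSSCs 27 were higher, none was lower, and the median log2 ratio was 3.71. Their values summed to 107102 in *upf1∆rrp6∆* and 12405 in *upf1∆* cells. snR34 had the highest value, 38610, against 6547. snR35 had 9218 and 322, snR10 had 6826 and 348, and snR82 had 4717 and 97. snR189 had 669 and 11, and snR3 had 2064 and 36. The exception was snR190 with 120 and 80. *NME1*, the RNA of RNase MRP, which cleaves pre-rRNA, had 5082 and 162. Of the snRNAs, U4 (snR14) had 619 and 5, U1 (snR19) had 1281 and 330, U5 (snR7) had 118 and 54, and U2 (LSR1) had 5058 and 2723, which is under 2-fold. In the second *upf1∆* set U4 was at 1.33, and all 27 snoRNA TSSCs found there were higher against it.

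**Figure D4:**
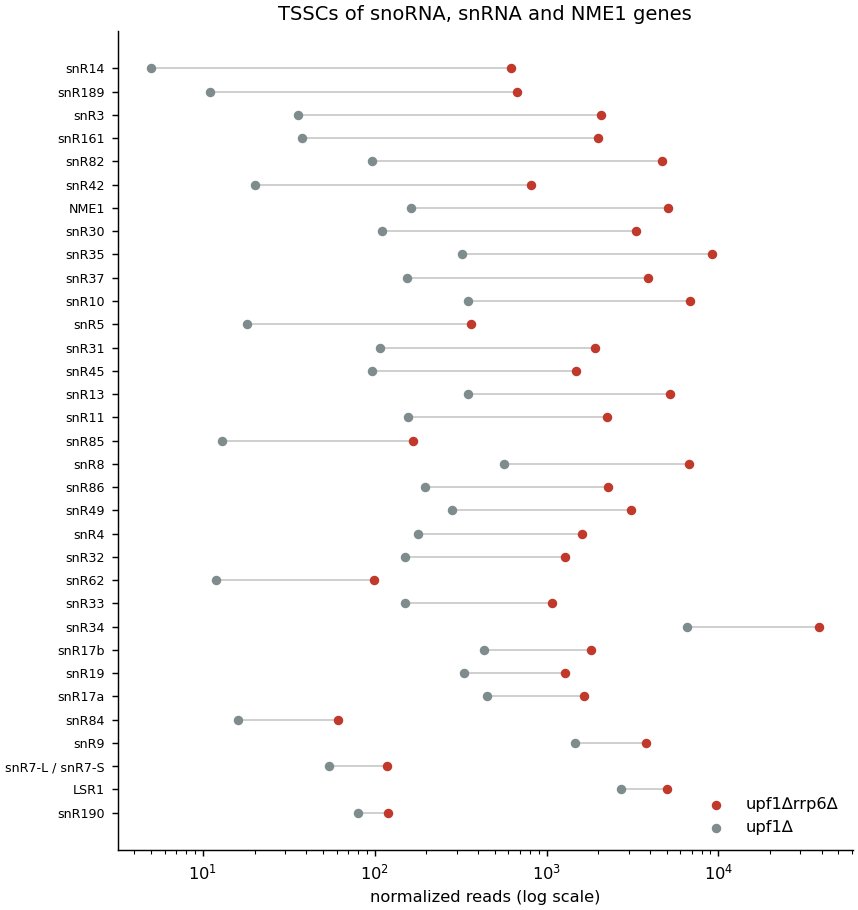
Normalized reads (x axis, log scale) of each snoRNA, snRNA and *NME1* TSSC in *upf1∆rrp6∆* (red) and *upf1∆* cells (grey), ordered by ratio from snR14 (619 and 5) at the top to snR190 (120 and 80) at the bottom. Each red point lies to the right of its grey point.

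tRNA genes, which are transcribed by RNA polymerase III, had 172 TSSCs. 120 of them were higher and none lower, with a median of 1.72, but the levels were low, with medians of 6 reads in the double mutant and 1 read in *upf1∆* cells. 138 of them ended between 14 and 7 nt before the 5′-end of the mature tRNA, with a median of 10 nt, and their median width was 1 nt. Whether the RNAs behind these reads were capped was not tested, so they are not shown to be capped starts. The 3 highest in the double mutant were tD(GUC)N with 159 in *upf1∆rrp6∆* and 77 in *upf1∆* cells, tN(GUU)P with 154 and 95, and tH(GUG)G2 with 56 and 4. The 292 TSSCs of long terminal repeats and Ty elements had a median of 0.00, with 25 higher and 8 lower. The lowest TSSCs of the F class were of this kind, YKRCdelta8 with 16 and 29, YNLCdelta2 with 22 and 38, and YLRCdelta21 with 393 and 666. Copies of repeats can share reads.

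The largest mRNA ratios were those of *YGR121W-A*, *IMD3* and *URA2*. *YGR121W-A* had 349 in the double mutant and 5 in *upf1∆* cells. *IMD3*, an IMP dehydrogenase gene of GTP synthesis, had an upstream TSSC with 5081 in the double mutant and 148 in *upf1∆* cells (153 in the second set), a log2 ratio of 5.09. Its downstream TSSC had 326 and 357 (393). *URA2*, which encodes the first enzyme of pyrimidine synthesis, had 1343 and 46 (14.6). *IMD2*, a paralog of *IMD3*, had 1120 and 325 (329). The smallest ratios belonged to *GYP5*, a GTPase-activating protein gene, with 2 and 107 (61.2), to *YNL040W* with 25 and 916 (560), and to *YHL012W* with 4 and 111 (125). The TSSCs of *YGR121W-A* and *YHL012W*, assigned to mRNAs by the authors, lie downstream of the annotated start codon. Their values do not count transcripts with the whole ORF. These low ratios were also seen with Upf1 present. *GYP5* had 4 in *rrp6∆* and 110 in wild-type cells, *YNL040W* had 18 and 835, and *YHL012W* had 0 and 24. *URA10*, a pyrimidine synthesis gene, had 4 and 67 (132) at its downstream TSSC, against 331 and 200 (184) at the upstream one.

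From 10 reads up, ratios were smaller for more abundant mRNAs. By wild-type value, the median was 0.26 below 10 reads, 0.30 at 10 to 30 reads, 0.28 at 30 to 100, 0.21 at 100 to 300, 0.06 at 300 to 1000, -0.12 at 1000 to 3000 and -0.36 for the 283 TSSCs of 3000 or more.

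In 335 genes with at least 2 mRNA-TSSCs of a mean of 20 or more, the TSSC farthest upstream had a median ratio of 0.34 and the one farthest downstream 0.04. The upstream TSSC had the larger ratio in 226 of the 335 genes. It exceeded the downstream ratio by more than 2-fold in 79 genes, and the reverse held in 9. With Upf1 present the counts were 93 and 13. *AGP3*, an amino acid permease gene, had 375 in the double mutant and 32 in *upf1∆* cells (22.6) upstream, and 40 and 102 (93.2) downstream. *MEP1*, an ammonium permease gene, had 486 and 50 (43.9) upstream and 50 and 80 (75.9) downstream. *MCR1*, a mitochondrial reductase gene, had 186 and 8 (3.99) upstream and 529 and 463 (555) downstream. *DUR3*, a urea transporter gene, ran the other way, with 183 and 178 (176) upstream and 54 and 2 downstream. These 4 genes were chosen after their values were seen.

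Of the NNS genes, *NRD1* and *NAB3* were higher. *NRD1* had 522 in *upf1∆rrp6∆* and 99 in *upf1∆* cells (110 in the second set) and *NAB3* had 620 and 281 (256), while *SEN1*, the helicase of the complex, had 9 and 11 (6.65). In *rrp6∆* cells *NRD1* had 523, against 84 in wild-type, and *NAB3* had 678 against 300. The lists that follow are to be read against all mRNA-TSSCs, of which 5.30% were higher and 2.85% lower, with a median of 0.15. Of the 17 TSSCs of the nuclear exosome and TRAMP list, *TRF5*, a poly(A) polymerase of TRAMP, was higher with 58 and 27, only *RRP6* was lower, and the median was 0.30. Of the 12 TSSCs of the NMD and decapping list 0 passed 2-fold, with a median of 0.35. With the second *upf1∆* value, 3 of 11 were higher and 1 lower, with a median of 0.67. *NMD2*, a partner of Upf1, had 112 and 89 (26.6), *EBS1* had 729 and 366 (277), and the decapping activator *DHH1* had 690 and 381 (286). The lower one was a minor *DHH1* TSSC matched to the same second value. These 3 genes were chosen after their values were seen. Of the 17 TSSCs of mRNAs earlier tied to premature termination or the exosome, 8 were higher and 2 lower, with a median of 0.53. The 2 were those of *TIS11*, an mRNA-binding protein of iron starvation, with 140 and 355 (334) and with 13 and 37 (49.2). The second of these lies downstream of the annotated start codon. In the nucleotide synthesis list 3 of 23 were higher and *URA10* was lower, with a median of 0.17.

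Lists of ribosomal protein, glycolysis and histone genes had negative medians. Cytosolic ribosomal protein genes had a median of -0.39 over 140 TSSCs, with 125 below 0, 3 higher and 1 lower. Glycolysis genes had -0.57 over 16, histones -0.54 over 13 and mitochondrial ribosomal proteins -0.30 over 67. Ribosome biogenesis genes had 0.32 over 80, with 73 above 0 and 1 higher, *UTP5* with 50 and 23 (22.6). With the second *upf1∆* value these medians were -0.87, -0.98, -1.17, -0.51 and 0.77 in the order named, with the same signs. 44 ribosomal protein TSSCs were then lower and 34 ribosome biogenesis TSSCs were higher, where 7.01% of all mRNA-TSSCs were lower and 14.8% higher. For cytosolic ribosomal proteins, histones and ribosome biogenesis, both medians lay farther from each other than the first lay from 0. In the ribosome biogenesis list 20% of TSSCs had a *upf1∆* value more than 2-fold above the second value, against 4.84% of mRNA-TSSCs. The median *upf1∆* value was 8127 for cytosolic ribosomal proteins, 6273.5 for glycolysis, 1936 for histones and 399 for mitochondrial ribosomal proteins. By wild-type value, all mRNA-TSSCs had a median ratio of -0.36 at 3000 or more, -0.12 at 1000 to 3000 and 0.06 at 300 to 1000. The part of abundance in the list medians was not tested. *RPS14B* ran against its group with 21694 in the double mutant and 6100 in *upf1∆* cells (7629). *RPS22B* had 1951 and 876 (1194), which is under 2-fold against the second set. Many ribosomal protein genes have near copies, and reads shared by copies cannot be told apart here. Of glycolysis genes *TDH1* was lower with 2220 and 4637 (5857), and of mitochondrial ribosomal proteins *MRPL17* with 154 and 338 (334).

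Phosphate genes had the lowest list median, -0.87 over 16 TSSCs of 13 genes. Against the second *upf1∆* value it was -0.86, and those of histones, glycolysis and ribosomal proteins were lower. 8 of the 16 were lower, against 2.85% of all mRNA-TSSCs, and 1 was higher. *PHO5*, a secreted acid phosphatase, had 7 in *upf1∆rrp6∆* and 108 in *upf1∆* cells (121 in the second set). *SPL2*, an inhibitor of low-affinity phosphate uptake, had 53 and 431 (508). *PHO84*, the high-affinity phosphate transporter, had 150 and 483 (608), and *PHO89*, a second transporter, had 9 and 35 (41.3). *PHO11* had 159 and 710 (828) and *PHO12* had 225 and 804 (982), but these acid phosphatase genes are near copies of each other. *VTC1*, a subunit of the polyphosphate polymerase complex, had 1966 and 5814 (8744), and *PHM6* had 299 and 623 (576). All 8 lower members are named, beyond the 3 that the rule asked for. Against the second *upf1∆* value 7 of the 16 were lower, without *PHM6*. The one higher TSSC was the downstream one of *VTC3*, with 64 and 15 (10.6), while the main *VTC3* TSSC had 574 and 919 (780). With Upf1 present 2 of the 16 TSSCs were lower in *rrp6∆* than in wild-type cells and the median was -0.46. *SPL2* had 505 in *rrp6∆* and 773 in wild-type cells, *PHO84* had 584 and 793, and *PHO5* had 56 and 300.

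**Figure D5:**
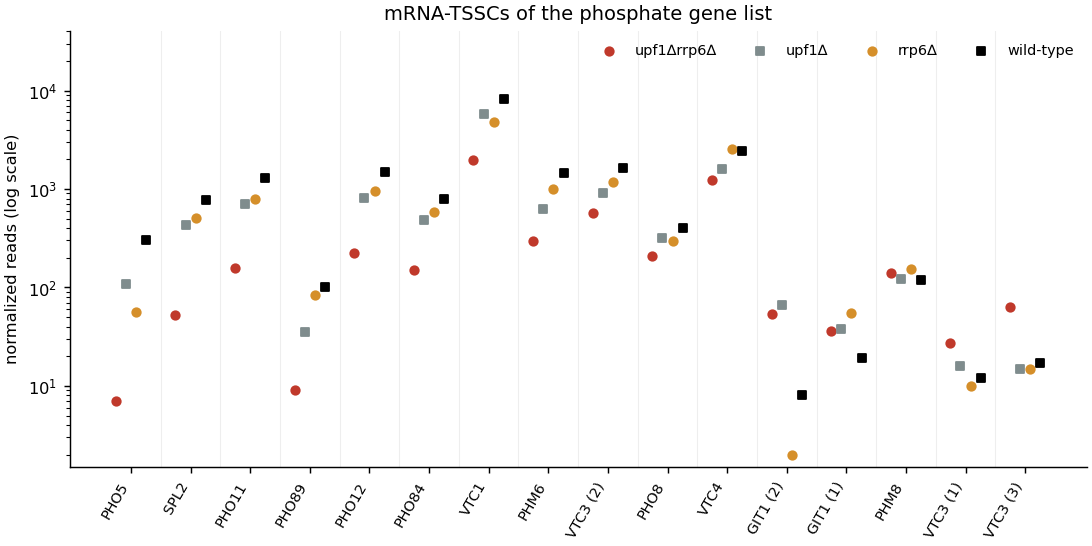
Normalized reads (y axis, log scale) of the 16 mRNA-TSSCs of the phosphate list in *upf1∆rrp6∆*, *upf1∆*, *rrp6∆* and wild-type cells, left to right within each gene and ordered by the ratio of double mutant over *upf1∆*. Numbers in brackets count TSSCs of a gene along its direction of transcription. For the 8 genes at the left the red double mutant point is the lowest of the 4.

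In the remaining lists the shares called are again to be read against 5.30% higher and 2.85% lower of all mRNA-TSSCs. In the amino acid synthesis list 5 of 74 TSSCs were higher and 4 lower, shares of 6.76% and 5.41%, and the median was -0.02, with a positive sign when sums were made equal. The arginine genes *ARG1* with 267 and 862 (1385) and *ARG4* with 558 and 1480 (2020) were lower, as was the sulfate assimilation gene *MET16* with 136 and 332 (363). Of the higher ones, 4 were upstream TSSCs of genes whose main or downstream TSSC was within 2-fold. *GDH1* had 246 and 110 (205) upstream, under 2-fold against the second set, and 3387 and 3730 (4284) downstream. *LEU4*, the first enzyme of leucine synthesis, had 1374 and 167 (180) upstream and 479 and 394 (337) next to the ORF. *MET3* had 25 and 6 upstream and 21 and 39 (53.2) downstream, and *MET5* had 319 and 128 (104) upstream and 111 and 181 (224) downstream. Both methionine genes were thus lower at the downstream TSSC by more than 2-fold with the second *upf1∆* value.

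In the iron and zinc list 7 of 36 were higher and 6 lower, 19.4% and 16.7%, with a median of -0.08. Cell wall proteins of siderophore uptake, *FIT3* with 615 and 2222 (2936) and *FIT2* with 214 and 607 (639), and the transporter *ARN2* with 49 and 155 (146), were lower. The heme oxygenase *HMX1* with 752 and 243 (282), *ARN1* with 94 and 22 (17.3) and *FRE2* with 25 and 4 (1.33) were higher. 2 further *ARN1* TSSCs were within 2-fold, with 67 and 47 (30.6) and with 34 and 57 (46.6). Of 40 heat shock and stress TSSCs 2 were higher and 4 lower, 5.00% and 10.0%, with a median of -0.16. *HOR7* had 513 and 1720 (1964), *HSP12* had 320 and 717 (870) and *ALD3* had 284 and 117 (101). In the cell wall list 5 of 42 were higher and 2 lower, 11.9% and 4.76%. Its median was 0.10, and negative when centred or with the second *upf1∆* value. *TIR1* had 142 and 542 (664), *CCW12* had 15044 and 31105 (45872), and *PIR1* had 222 and 73 (69.2) upstream and 343 and 304 (323) downstream.

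*HXT1*, a glucose transporter gene, had 67 and 8 (3.99) upstream and 225 and 322 (250.2) downstream. Of the 13 hexose transporter TSSCs *GAL2* alone was lower, with 3 and 8 (7.98), and the median was 0.20. In the meiosis and sporulation list 2 of 26 were higher and 4 lower, 7.69% and 15.4%. Its median was -0.03, and 0.01 with the second *upf1∆* value. *SPO73* had 183 and 74 (67.9) upstream and 69 and 111 (130.4) next to the ORF. *RIM4* had 63 and 27 (22.6) and *DIT1* had 54 and 158 (165), and the other 3 lower ones were at 4 reads or less. The *DIT1* TSSC lies downstream of the annotated start codon. Genes of a cells had 1 of 8 lower, *ASG7* with 40 and 93 (133), and a median of -0.09. The 4 TSSCs of alpha cell genes were within 2-fold, with a median of 0.12 that was negative when centred. Of 4 TSSCs of deleted or marker genes, *RRP6* alone passed 2-fold, and the median was -0.19.

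The effect of Rrp6 loss without Upf1 was set against that with Upf1 (*rrp6∆* over wild-type), which shares no library with it. Over all TSSCs 24.7% were higher and 3.13% lower in *rrp6∆* cells, and 4.29% and 2.70% of mRNA-TSSCs. The median difference between the log2 ratios was 0.15 for CUT-, 0.23 for antisense and 0.10 for mRNA-TSSCs, and at most 0.05 in size for XUT-, SUT-, intergenic, B- and F-TSSCs. Of the 8762 TSSCs with a mean over the 4 genotypes of 20 or more, 1833 were higher without Upf1 and 1821 with it, and 1620 were higher in both, which is 88.4% and 89.0% of those sets. For CUTs 702 were shared, of 714 and 716 among the 810 kept, so most of those kept were higher in both. The mean includes the values compared, and a CUT low in *upf1∆* and wild-type cells passes it only through the genotypes without Rrp6. The shares in both sets thus depend in part on this filter. Lower TSSCs were shared less, with 148 of 252 without Upf1 and of 238 with it. 0 of the 8762 went past 2-fold in opposite directions, and 10 of all 17812 did. The difference was above 1 for 199 and below -1 for 223 of the 8762.

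The TSSCs with the largest differences were chosen after their values were seen. The internal *MDR1* TSSC had the largest positive difference, 3.24. CUT114 had 106 in *upf1∆rrp6∆* and was listed at 0 in *upf1∆* cells, and had 42 in *rrp6∆* and 2 in wild-type cells. XUT_7F-213 had 160 in the double mutant and 3 in *upf1∆* cells, and 48 in *rrp6∆* and 6 in wild-type cells. The antisense TSSC of *STE14*, a methyltransferase of the a-factor pathway, had 72 and 3, and 13 and 3 with Upf1 present. On the other side, the TSSC between *YGL263W* and *YGL262W* had the largest negative difference, -3.77. *ARG1* had 930 in *rrp6∆* and 603 in wild-type cells, opposite in sign to its ratio without Upf1, and *SPL2* differed by -2.39. The internal TSSC of *YER158C* had 116 in the double mutant and 103 in *upf1∆* cells (104), and 18 in *rrp6∆* and 1 in wild-type cells. With 1 pooled value per genotype, none of these differences could be tested.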

How the data were processed

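TSS libraries from poly(A)+ RNA, 3 per genotype, were analysed. The study calls them biological replicates and the labels name no cultures. The authors removed duplicates by a random tag, aligned reads with Bowtie2 to the R64 genome, clustered and filtered TSSCs, and normalized reads with DESeq2 within SARTools on reads upstream of ORF start codons. The score values, as deposited, are these normalized reads, 1 whole number per genotype and TSSC. That it is the mean of 3 libraries was inferred. The depth of single libraries is not in these values, and neither counting intervals nor a fit across libraries can be had from them. The table also holds fold changes and p-values of the authors' comparisons, which were not used. Of columns with values per sample, 0 were left unused.

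The design had allowed for counts per library, which these values are not. Ratios were computed in Python 3.11.15 with pandas 2.3.3 and numpy 2.4.6, with a pseudocount of 1, and shares past 2-fold and medians were taken per class and gene list. The second *upf1∆* value was matched by an overlap of at least 1 nt on the same strand and multiplied by 1.33. Several TSSCs can match the same second value. Counting was tested on simulated data. Of 5231 ORFs, 5075 had the coordinates of the R64 reference used for sequences. Sequences were read from the RefSeq R64 genome, without 6 mitochondrial TSSCs and 2 others that had no full window. Named TSSCs were, per class, the 3 with the largest and the 3 with the smallest ratio among those with a mean of at least 20, and per list up to 3 called members in each direction with a mean of at least 10, besides the deleted genes, *ACT1* and the NNS genes. The comparison, classes and lists were chosen with earlier results of these data known. Words, shares by position and TSSC pairs were descriptions without tests. Alternatives were other pseudocounts, a filter on low values, other scalings and the second *upf1∆* value. Some members of the cytosolic ribosomal protein list are not reported here by name.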

Additional observations from a re-analysis of the deposited data

How the results depend on the processing

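Of 309 values recomputed under other settings, 267 stayed within the limit set for them, 35 moved past it and 7 changed sign. The limit was 1.5-fold for a share and, for a median, the SD between both *upf1∆* values. With a pseudocount of 5, the CUT median was 2.02 and the antisense median 0.68. The shares higher were then 23.8% for intergenic, 36.8% for antisense, 6.85% for internal sense and 18.3% for stable RNA TSSCs. The shares lower were 0.125% for CUTs, 1.86% for XUTs, 1.36% for intergenic, 0.571% for antisense, 4.33% for internal sense, 0% for stable RNA and 2.05% for all TSSCs. With a pseudocount of 0.1, 3.20% of antisense and 2.99% of stable RNA TSSCs were lower. With a mean of at least 10, 0.448% of stable RNA TSSCs were lower. Centring on the median mRNA-TSSC moved every ratio by -0.15 and gave shares lower of 6.24% for XUTs, 5.58% for intergenic, 3.71% for antisense, 16.1% for internal sense, 3.19% for stable RNA and 6.11% for all TSSCs. With the second *upf1∆* value, shares lower were 3.01% for CUTs, 11.3% for XUTs, 12.4% for SUTs, 12.9% for intergenic, 9.38% for antisense, 27.2% for internal sense, 8.80% for stable RNA, 7.01% for mRNA and 11.6% for all TSSCs. The share of mRNA-TSSCs higher was 14.8%, the antisense median 0.71, the attenuated mRNA median 1.14 and the histone median -1.17. Medians near 0 changed sign in 7 cases. These were amino acid synthesis at equal sums (0.023), cell wall (-0.044) and alpha genes (-0.027) when centred, cell wall (-0.0087) and meiosis (0.011) with the second *upf1∆* value, and the SUT (-0.0026) and intergenic (-0.030) differences between both Rrp6 effects at a mean of the 4 genotypes of at least 10. The cause was not tested. No paired analysis was possible because the table holds 1 pooled value per genotype. Leaving out single libraries, and the other fits that need values per library, were not run for the same reason. The pooling, and the choice of TSSCs by their signal in the double mutant, limit all values given here.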
